A study of Mus musculus with 16 samples.

Results

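Rrm1, Rrm2, Tyms, Tk1 and Dut encode enzymes that supply deoxyribonucleotides for DNA synthesis, and their RNA was followed in the lungs of newborn mice after a single exposure to ozone. The 5 genes were chosen by name, with earlier results of these data known. They carry 9 of the 41174 non-control probes and are 5 of the 27729 genes named on the array. The lungs came from BALB/c pups labelled 3 days old that breathed ozone at 1000 ppb for 3 h, or filtered air for 3 h as littermate controls, and no group carried an altered allele. The 4 groups of 4 lungs were ozone at 6 h after exposure, air at 6 h, ozone at 24 h and air at 24 h, with 1 single-colour array per mouse, the 4 mice of a group being a random subset of those exposed. All pups were fostered by other dams during the exposure, and each time was run separately with its own air controls, so time and run cannot be told apart.

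Ribonucleotide reductase makes deoxyribonucleotides from ribonucleotides; Rrm1 is its large catalytic subunit and Rrm2 its small subunit, which carries the radical the reaction needs and is made mainly in S phase. Thymidylate is made from dUMP by thymidylate synthase (Tyms) or from salvaged thymidine by the cytosolic thymidine kinase (Tk1), and dUTPase (Dut) breaks down dUTP, which keeps uracil out of DNA and yields the dUMP that Tyms uses. In the newborn lung many cell types still divide while the alveoli form, and these enzymes are highest in dividing cells.

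Tyms has a near copy on the array, Tyms-ps on chromosome 10, and the probe sequences are shown because they set how far the copies can be told apart. The first Tyms probe lies at chr5:30387605-30387664 on the minus strand (mm9), and the second covers chr5:30387625-30388518, a span longer than the probe itself, so it joins separate blocks of the gene. The copy's probe lies at chr10:87430357-87430416 on the plus strand. Each is written 5′ to 3′, and capitals mark the longest run that each Tyms probe shares with the copy's probe, 21 bases for the first and 22 for the second; in the copy's line they mark the run of 22.
Tyms probe A_51_P398366: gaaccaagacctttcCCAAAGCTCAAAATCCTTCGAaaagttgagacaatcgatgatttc
Tyms probe A_52_P292651: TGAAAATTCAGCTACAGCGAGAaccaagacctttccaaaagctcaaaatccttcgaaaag
Tyms-ps probe A_51_P351363: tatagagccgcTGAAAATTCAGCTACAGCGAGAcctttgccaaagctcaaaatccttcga
With runs of this length in common, signal from the gene and from its copy cannot be told apart at these probes, and the 3 are given side by side below.

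Shown here are the start regions of the reductase subunits, the only ones among the 5 genes that held a motif string searched for. They run from 250 bases before the annotated start to 50 after it, in RefSeq on GRCm38.p6, at chr7:102441445-102441744 (plus strand) for Rrm1 and chr12:24708004-24708303 (plus strand) for Rrm2, with CCAAT, the core of the NF-Y motif, in capitals.
Rrm1: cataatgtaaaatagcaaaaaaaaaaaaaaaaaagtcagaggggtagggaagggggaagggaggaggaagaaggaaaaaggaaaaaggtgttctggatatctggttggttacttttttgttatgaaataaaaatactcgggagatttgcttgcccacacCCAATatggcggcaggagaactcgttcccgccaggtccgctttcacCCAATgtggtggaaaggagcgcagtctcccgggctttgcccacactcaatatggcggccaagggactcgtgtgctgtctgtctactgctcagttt
Rrm2: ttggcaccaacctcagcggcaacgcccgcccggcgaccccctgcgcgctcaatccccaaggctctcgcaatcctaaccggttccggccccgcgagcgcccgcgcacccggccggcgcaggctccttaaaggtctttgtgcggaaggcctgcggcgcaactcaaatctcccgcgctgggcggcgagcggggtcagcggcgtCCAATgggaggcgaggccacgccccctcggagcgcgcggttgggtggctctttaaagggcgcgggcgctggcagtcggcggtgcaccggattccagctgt
All 5 genes had such a window in RefSeq, but only those of Rrm1 and Rrm2 were set on the gene's outermost start. The Dut window, chr2:125247265-125247564, lies inside the gene, which begins at 125247248, so it holds no sequence before that base. For Tyms and Tk1 the outermost starts, 30073645 and 117826087, fall within the windows, upstream of the starts used. CCAAT, searched on both strands, was present in the windows of Rrm1 and Rrm2 and not in those of Tyms, Tk1 and Dut, and 37.4% of 32851 windows of the same length held it. The E2F strings TTTCCCGC (1.07% of windows) and TTTGGCGC (0.514%) and the cell cycle homology string TTTGAA (17.9%) had no exact match in any of the 5. A match is only a run of letters, and its absence says nothing about binding.

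Read at its brightest probe, each of the 5 enzymes was lower in ozone lungs than in air lungs at 6 h after exposure. At 24 h Rrm1, Rrm2, Tyms and Tk1 were lower. By limma with Benjamini-Hochberg adjustment over the 21631 genes tested, 5 of 5 members passed an adjusted p of 0.05 as lower at 6 h, where 3.11% of all genes did. At 24 h 4 of 5 passed as lower, where 1.32% of all genes did. None rose at either time. The median log2 difference of the 5 was -0.66 at 6 h, against 0.07 over all genes, and -0.59 at 24 h, against 0.02 over all genes. Whole lungs were measured, so fewer dividing cells and less of these RNAs per cell cannot be told apart.

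**Figure D1:**
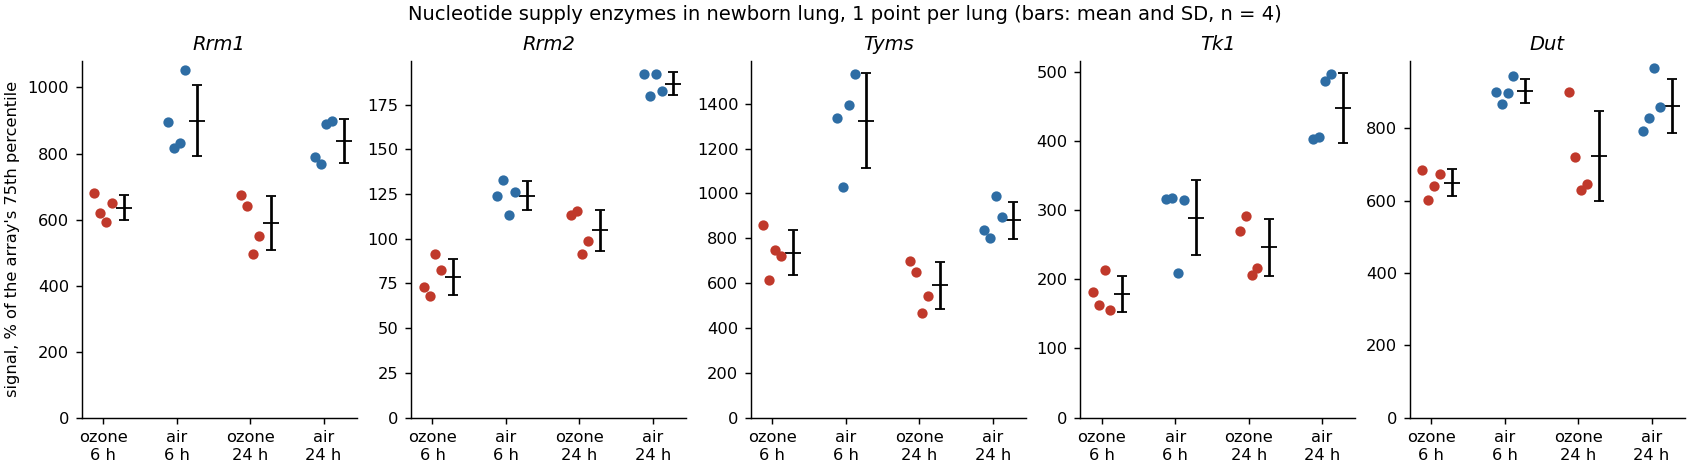
Signal of each enzyme's main probe in every lung, as a percentage of that array's 75th percentile signal, with the mean and SD of 4 lungs beside the points (ozone in red, air in blue; panels have separate scales, each from 0). At 6 h all 4 ozone values lie below all 4 air values for 4 of the 5 genes, with Tk1 as the exception; at 24 h the same holds for 4 of 5, with Dut as the exception.

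Levels are given as a percentage of the 75th percentile signal of the same array, for replicates 1 to 4 in order, and a level is compared only with the same probe's level elsewhere. Rrm2, read at chr12:25398619-25398675 (mm9), stood at 73.1, 68.0, 91.2 and 82.3% in ozone lungs at 6 h, against 124, 133, 113 and 126% in air lungs. At 24 h it stood at 113, 115, 91.3 and 98.9% in ozone lungs, against 192, 179.9, 192 and 183% in air lungs. No ozone value reached an air value of its own time, and the air lungs at 24 h were the highest of all. The log2 difference was -0.66 ± 0.10 at 6 h (SE, n = 4 each, limma adjusted p = 0.00201) and -0.84 ± 0.10 at 24 h (adjusted p = 0.000212), which is 0.632 and 0.558 of the air level. From low to high the groups ran ozone 6 h (78.7 ± 10.2%, SD, n = 4), ozone 24 h (105 ± 11.5%), air 6 h (124 ± 8.18%) and air 24 h (187 ± 6.35%). Of neighbours in that order only ozone 24 h and air 6 h overlapped, through a 24 h ozone lung at 115% and a 6 h air lung at 113%.

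Rrm1, the partner subunit, is read by a probe at chr7:109617223-109617283. It stood at 679.7, 619, 594 and 651% in ozone lungs at 6 h, against 897, 815, 833 and 1052% in air lungs. The 24 h values were 673, 641, 496 and 552% in ozone lungs, against 789.9, 769.7, 889.6 and 899% in air lungs. The ozone values lay below the air values at both times, with the highest air value in replicate 4 of the 6 h run. The log2 difference was -0.49 ± 0.10 at 6 h (SE, limma adjusted p = 0.0131) and -0.51 ± 0.10 at 24 h (adjusted p = 0.00992). The order from low to high was ozone 24 h (590.4 ± 81.3%), ozone 6 h (636 ± 37.4%), air 24 h (837 ± 66.6%) and air 6 h (899 ± 108%), and lungs of the same exposure overlapped between the times. A second Rrm1 probe, at chr7:109595266-109595325, was well above background on 1 of 16 arrays and was not tested. The log2 ratio of Rrm2 to Rrm1 within each array differed by -0.33 between ozone and air lungs at 24 h, all 4 ozone ratios lying below all 4 air ratios, and by -0.17 at 6 h. The two-sided exact permutation p was 0.0286 at 24 h, the smallest that 4 against 4 allows, and 0.314 at 6 h. Adjusted over the 20 ratios of members computed these were 0.0714 and 0.419, so neither passed.

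Thymidylate synthase was lower at both times at its brightest probe. At the first Tyms probe the level was 858, 614, 749 and 720.4% in ozone lungs at 6 h, against 1339, 1030.4, 1395 and 1534% in air lungs. Those at 24 h were 699.7, 650.2, 468 and 544% in ozone lungs, against 836, 801, 988 and 895% in air lungs. Groups of the same time did not overlap, and replicate 2 was the lowest lung of both groups at 6 h. The log2 difference was -0.84 ± 0.14 at 6 h (SE, limma adjusted p = 0.00347), or 0.557 of the air level, and -0.59 ± 0.14 at 24 h (adjusted p = 0.0309), or 0.665 of the air level. Ozone 24 h was the lowest group (590.5 ± 104%), followed by ozone 6 h (735 ± 100.0%), air 24 h (879.9 ± 81.8%) and air 6 h (1325 ± 213%); the ozone groups overlapped, as did ozone 6 h and air 24 h.

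The second Tyms probe and the probe of the copy gave nearly the same differences. In a fit of all 32343 probes, of which 2.62% were lower at 6 h and 1.12% at 24 h, the second probe differed by -0.85 ± 0.12 at 6 h (adjusted p = 0.00214) and -0.65 ± 0.12 at 24 h (adjusted p = 0.00827). The Tyms-ps probe differed by -0.85 ± 0.12 at 6 h (adjusted p = 0.00148) and -0.64 ± 0.12 at 24 h (adjusted p = 0.00664). The remaining Tyms probe, at chr5:30387873-30387932 and designed on a genomic record, was dim (2.79 to 9.89% at 6 h in ozone lungs and 3.19 to 6.34% in air lungs) and well above background on 15 of 16 arrays. It did not pass, with 0.06 ± 0.32 at 6 h and -0.09 ± 0.32 at 24 h. Its position falls inside the span of the second probe, 30387625 to 30388518, but its bases are not in that probe. It therefore reads a stretch left out of the RNA that joins the second probe's blocks, and is not another reading of that joined RNA. The dim probe's longest run shared with the Tyms-ps probe was 7 bases, against 21 and 22 for the Tyms probes that were lower. Averaging the 3 probes, the dim one included, instead of using the brightest, ended both Tyms calls (-0.55, adjusted p = 0.0546 at 6 h; -0.44, adjusted p = 0.196 at 24 h).

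Thymidine kinase 1, the salvage enzyme, is read at chr11:117677105-117677164 on the minus strand. Its level was 181, 164, 214 and 155% in ozone lungs at 6 h, against 317, 318, 209 and 315% in air lungs. In the 24 h run it was 270.3, 291, 207 and 217% in ozone lungs, against 403, 407, 487 and 497% in air lungs. The 6 h groups overlapped through replicate 3 alone, the highest ozone lung and the lowest air lung, and the 24 h groups were apart. The log2 difference was -0.69 ± 0.15 at 6 h (SE, limma adjusted p = 0.0163), or 0.621 of the air level, and -0.87 ± 0.15 at 24 h (adjusted p = 0.00294), or 0.547 of the air level. The groups stood in the same order as for Rrm2, ozone 6 h (178 ± 25.8%), ozone 24 h (246 ± 40.8%), air 6 h (289 ± 53.9%) and air 24 h (448 ± 50.4%), and neighbours below air 24 h overlapped.

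For dUTPase the fall was called at 6 h only, and the difference between the times was itself not called. The brighter Dut probe, at chr2:125083142-125083201, stood at 685, 601, 640.5 and 672% in ozone lungs at 6 h, against 902, 867, 898 and 946% in air lungs. In the 24 h run it stood at 901, 721, 629 and 646% in ozone lungs, against 793, 829, 968 and 859% in air lungs. The 6 h groups were apart, and at 24 h ozone replicate 1 lay above 3 of the 4 air lungs while the other ozone lungs lay below all of them. The log2 difference was -0.48 ± 0.10 at 6 h (SE, limma adjusted p = 0.0131) and -0.26 ± 0.10 at 24 h (adjusted p = 0.210; 95% interval -0.47 to -0.06 before adjustment). Without ozone replicate 1 the 24 h value was -0.37 with an adjusted p of 0.0202. That was the only 1 of the 16 fits without 1 lung that called Dut at 24 h, and the values ran from -0.37 to -0.20. The order from low to high was ozone 6 h (649.7 ± 37.3%), ozone 24 h (724 ± 125%), air 24 h (862 ± 75.3%) and air 6 h (903 ± 32.5%), each neighbour overlapping the next. The other Dut probe, at chr2:125083359-125083418, gave -0.43 ± 0.10 at 6 h (adjusted p = 0.0300 over all probes) and -0.26 ± 0.10 at 24 h (adjusted p = 0.310).

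**Figure D2:**
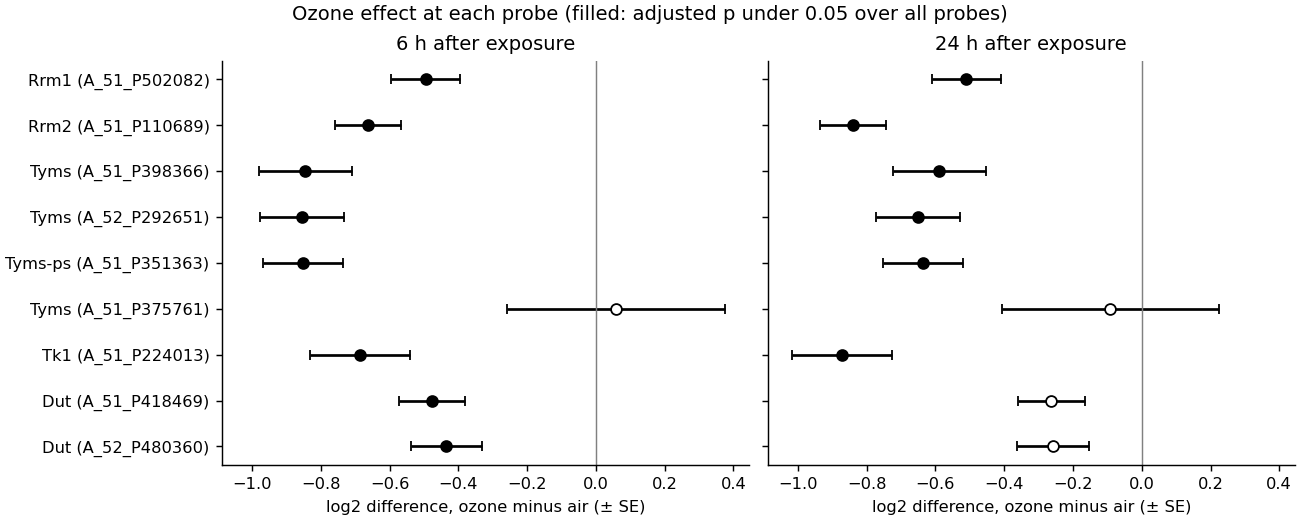
Log2 difference, ozone minus air, at each tested probe of the 5 enzymes and at the Tyms-ps probe, 6 h (left) and 24 h (right) after exposure, with bars of 1 SE; filled points passed an adjusted p of 0.05 over all probes. Of the 8 member probes tested, 7 were lower at 6 h and 5 at 24 h, and the dim remaining Tyms probe sits near 0 at both times.

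In all, 4 of the 5 genes had every ozone lung below every air lung at 6 h, where 4.87% of all genes did, and 4 of the 5 at 24 h, where 4.96% did. Calls at 6 h rested in part on the spread pooled over all 16 arrays: with the 8 arrays of that time alone 3 of 5 remained, Rrm1 (adjusted p = 0.0520) and Tk1 (adjusted p = 0.0687) falling short, and without air replicate 4 of the 6 h run 2 of 5 remained, Rrm2 and Tyms. At 24 h the Rrm2 and Tk1 calls held in every one of the 16 fits that left out 1 lung, as did Rrm1, while Tyms lost its call in 5 of them. Of the lungs, 3 of 4 in the 24 h ozone group and 1 of 4 in the 24 h air group were male by Ddx3y and Xist (2 of 4 and 1 of 4 at 6 h), and with Xist as a covariate Rrm1 (-0.47 ± 0.11, adjusted p = 0.0520) and Tyms (-0.60 ± 0.15, adjusted p = 0.0881) were not called at 24 h, at log2 differences close to the -0.51 and -0.59 without it. The same 2 calls were lost when arrays were scaled to their medians, where Rrm1 differed by -0.51 ± 0.15 (adjusted p = 0.159) and Tyms by -0.59 ± 0.16 (adjusted p = 0.104), so the differences stayed and the SE grew.

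Arrays of replicates 1 and 2 shared a slide, as did those of replicates 3 and 4, at each time. Within the slide of replicates 3 and 4 at 24 h the log2 differences were -0.77 for Rrm1, -0.98 for Rrm2, -0.90 for Tyms, -1.21 for Tk1 and -0.52 for Dut. Within the slide of replicates 1 and 2 they were -0.25, -0.70, -0.28, -0.53 and -0.01 for the genes in the same order. All 5 were therefore numerically smaller on the first slide, and Dut was near 0 there. At 6 h the slide of replicates 3 and 4 gave -0.59 for Rrm1, -0.46 for Rrm2, -0.99 for Tyms, -0.49 for Tk1 and -0.49 for Dut, and the slide of replicates 1 and 2 gave -0.40, -0.86, -0.69, -0.88 and -0.46. The difference between the slides, tested after seeing these values, passed for no gene at either time (0 of 21631 by limma). It had an unadjusted p under 0.05 for 4 of the 5 members at 24 h (Rrm1, Tyms, Tk1 and Dut), where 1344 genes (6.21%) did, and for 1 of 5 at 6 h (Rrm2), where 2087 genes (9.65%) did. For Tk1 at 24 h it was -0.69 ± 0.24 (adjusted p = 0.798). On every slide the ozone samples held positions 1 and 2 and the air samples positions 3 and 4, so position and exposure cannot be told apart.

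**Figure D3:**
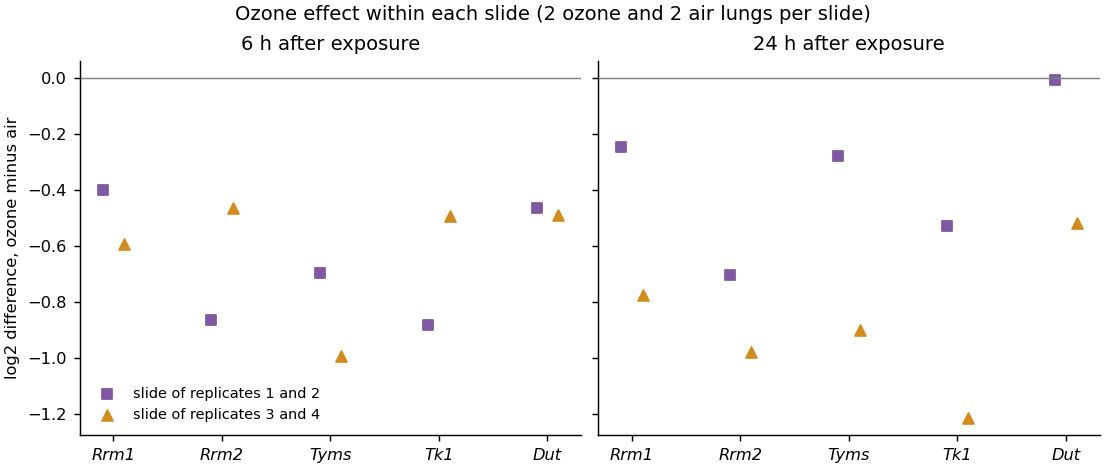
Log2 difference, ozone minus air, of each enzyme within each slide (2 ozone and 2 air lungs per slide; squares, replicates 1 and 2; triangles, replicates 3 and 4), at 6 h and 24 h. All points lie below 0, Dut on the first 24 h slide at -0.01, and at 24 h the triangles lie below the squares for all 5 genes.

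The ozone effect did not differ detectably between the times for any of the 5. The difference of the effects, 24 h minus 6 h, was -0.18 for Rrm2, -0.18 for Tk1, -0.02 for Rrm1, 0.21 for Dut and 0.26 for Tyms, with adjusted p-values from 0.541 to 0.974. By limma 0 of 5 passed, and 0 of 5 had an unadjusted p under 0.05, while 0.0647% of all genes passed. The intervals leave room for sizeable differences: for Tyms from -0.15 to 0.66 and for Tk1 from -0.62 to 0.25 (95%, before adjustment). In air lungs the 24 h and 6 h groups did differ, and in opposite directions among the members. Rrm2 was higher by 0.59 ± 0.10 (adjusted p = 5.53e-05) and Tk1 by 0.65 ± 0.15 (adjusted p = 0.00122) at 24 h than at 6 h, and Tyms was lower, with -0.58 ± 0.14 (adjusted p = 0.00171). Rrm1 (-0.10 ± 0.10) did not pass, and the Dut probes disagreed, the brighter with -0.07 ± 0.10 and the other with -0.62 ± 0.10 (adjusted p = 9.39e-05 over all probes). Of all genes 21.4% were higher and 28.5% lower in that contrast, so calls of either direction were common there.

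**Figure D4:**
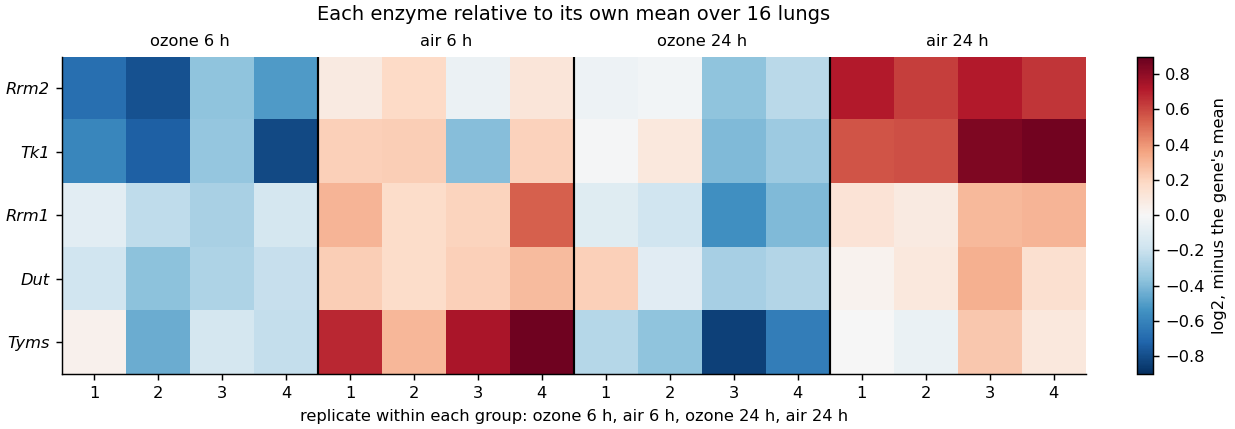
Log2 value of each enzyme in each of the 16 lungs, minus that gene's own mean (blue below, red above), with the groups ozone 6 h, air 6 h, ozone 24 h and air 24 h from left to right and replicates 1 to 4 within each. Rrm2 and Tk1 are reddest in air 24 h and Tyms in air 6 h, while ozone columns are mostly blue.

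Across the 16 arrays, which share the 4 group means, the members followed each other to very different degrees. Rrm2 and Tk1 correlated most closely (Pearson r = 0.96, n = 16 arrays, and 0.69 for deviations from the group means), followed by Rrm1 and Tyms (0.91, and 0.82 within groups). Tyms and Tk1 correlated least over all arrays (0.36, and 0.36 within groups), and Rrm1 and Rrm2 least within groups (0.64 over all arrays, and 0.35 within groups). Of all genes tested, those whose values ran closest to the mean of the 5 members were Brip1, a helicase of DNA crosslink repair (r = 0.973), Rfc5, a clamp loader subunit (0.969), Trip13, an ATPase that remodels checkpoint proteins (0.964), Blm, the Bloom syndrome helicase (0.963) and Cdt1, a replication licensing factor (0.957). These are descriptions with no test, since the arrays share group means and scaling.

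Of 78 other genes of nucleotide metabolism that were tested, 16 were lower and 0 higher at 6 h, where 3.11% of all genes were lower and 1.36% higher (median log2 difference -0.14, against 0.07 over all genes). At 24 h 2 were lower and 0 higher, where 1.32% of all genes were lower and 0.689% higher (median -0.00, against 0.02), so the 24 h count is near the share over all genes. Of other S phase genes, 33 of 35 were lower at 6 h (median -0.63) and 19 of 35 at 24 h (median -0.45). Of 25 mitosis genes, 4 were lower at 6 h (median -0.26) and 25 at 24 h (median -0.91). The members' medians of -0.66 and -0.59 were near those of the S phase list at both times, which is a description without a test. At an unadjusted p under 0.05 by limma, 29 of the 78 were lower and 4 higher at 6 h, where 10.8% of all genes were lower and 10.2% higher. At 24 h 8 were lower and 9 higher, where 5.05% and 8.25% of all genes were.

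**Figure D5:**
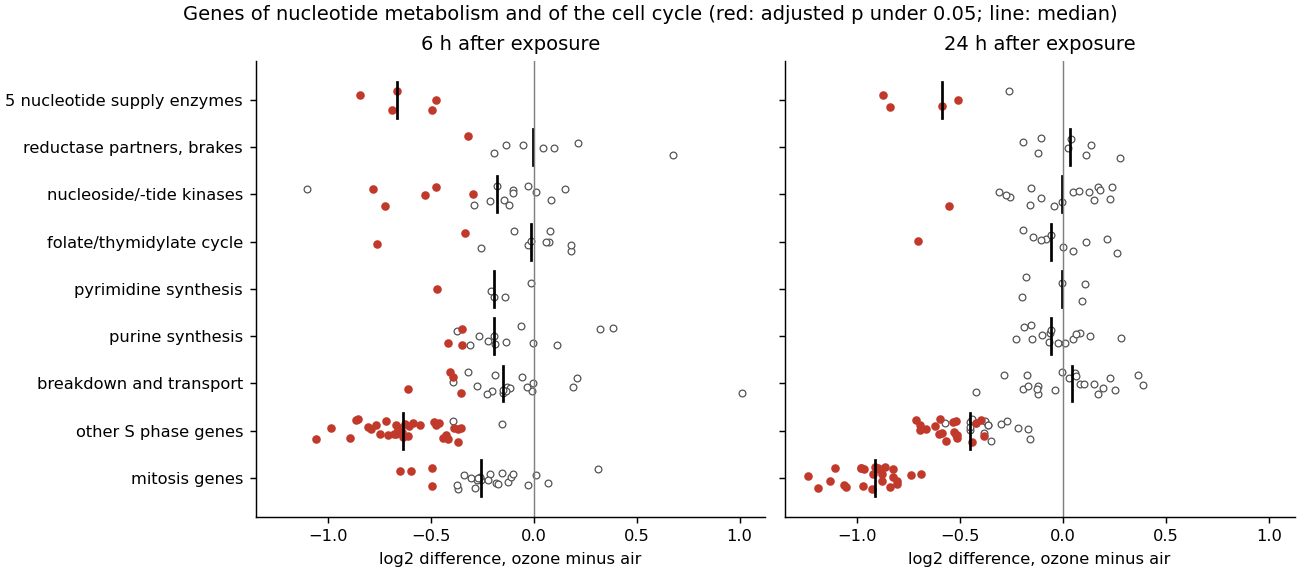
Log2 difference, ozone minus air, of each listed gene at 6 h (left) and 24 h (right), by list (red, adjusted p under 0.05; open, not called; black line, list median). In the 6 lists of nucleotide metabolism 16 of 78 genes were lower at 6 h and 2 at 24 h, against 33 and 19 of 35 for other S phase genes and 4 and 25 of 25 for mitosis genes.

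Among the partners of Tyms, the folate and thymidylate cycle list had 2 of 11 lower at 6 h and 1 at 24 h, where 3.11% and 1.32% of all genes were. Mthfd2, a mitochondrial enzyme of one-carbon folate metabolism, averaged 11.2 ± 1.09% in ozone and 19.1 ± 2.29% in air lungs at 6 h (-0.76 ± 0.12, adjusted p = 0.00312). At 24 h it averaged 13.8 ± 1.46% in ozone and 22.4 ± 0.969% in air lungs (-0.70 ± 0.12, adjusted p = 0.00371). Ggh, which trims stored folates, was lower at 6 h (-0.33 ± 0.09, adjusted p = 0.0396), a call that held in 7 of the 16 fits without 1 lung. Its 24 h difference of -0.08 did not pass (adjusted p = 0.807), and neither did the difference between the times (0.25, adjusted p = 0.419).

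Of 17 nucleoside and nucleotide kinases and related enzymes, 5 were lower at 6 h and 1 at 24 h, where 3.11% and 1.32% of all genes were. Thymidylate kinase (Dtymk), which acts on the product of both Tyms and Tk1, stood at 1074, 913, 942 and 1081% in ozone lungs at 6 h, against 1835, 1279, 1948 and 1895% in air lungs (-0.78 ± 0.12, adjusted p = 0.00262). Its 24 h difference of -0.27 ± 0.12 did not pass (adjusted p = 0.313). Deoxycytidine kinase (Dck), the salvage kinase for deoxycytidine, averaged 61.3 ± 4.84% in ozone and 85.5 ± 11.0% in air lungs at 6 h (-0.48 ± 0.11, adjusted p = 0.0200). It was the one kinase called at 24 h, with 72.0 ± 9.34% in ozone and 105 ± 4.47% in air lungs (-0.56 ± 0.11, adjusted p = 0.00786). Nucleoside diphosphate kinases Nme1 (-0.72 ± 0.10, adjusted p = 0.00117) and Nme4 (-0.53 ± 0.09, adjusted p = 0.00627) and guanylate kinase Guk1 (-0.29 ± 0.07, adjusted p = 0.0197) made up the 5 at 6 h. The mitochondrial thymidine kinase Tk2 was not called (0.15 ± 0.07 at both times), nor was dCMP deaminase Dctd (-1.10 ± 0.38 at 6 h, adjusted p = 0.111, and well above background on 14 of 16 arrays).

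Among the partners and brakes of the reductase 1 of 8 was lower at 6 h and 0 at 24 h by limma, where 3.11% and 1.32% of all genes were. At 24 h 1 was lower at an unadjusted p under 0.05, where 5.05% of all genes were. Rrm2b, the small subunit used outside S phase, stood at 24.1, 24.6, 30.7 and 26.2% in ozone lungs at 6 h, against 28.4, 22.7, 30.4 and 28.1% in air lungs. The 24 h values were 16.3, 15.1, 11.9 and 13.3% in ozone lungs, against 13.5, 11.4, 11.0 and 10.6% in air lungs. The groups overlapped at both times, and the log2 differences of -0.05 ± 0.13 and 0.28 ± 0.13 did not pass (adjusted p = 0.839 and 0.388). Samhd1, which degrades deoxyribonucleotides, differed by 0.10 ± 0.07 at 6 h and 0.13 ± 0.07 at 24 h, and neither passed. Thioredoxin (Txn1), an electron donor of the reductase, was the 1 called (-0.32 ± 0.09, adjusted p = 0.0482).

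The lists further from deoxyribonucleotides had 1 of 5 pyrimidine synthesis genes, 3 of 15 purine synthesis genes and 4 of 22 tested genes of breakdown, pool cleaning and transport lower at 6 h, and 0 of each at 24 h. Of all genes 3.11% were lower at 6 h and 1.32% at 24 h. The pyrimidine gene was Umps, which makes UMP (-0.47 ± 0.10, adjusted p = 0.0131). The purine genes were Ppat, which starts the pathway (-0.35 ± 0.09), Gmps, which makes GMP (-0.35 ± 0.09), and the salvage enzyme Hprt (-0.42 ± 0.08). The pool genes were the dCTP-degrading enzyme Dctpp1 (-0.61 ± 0.13), adenosine deaminase Ada (-0.41 ± 0.11, adjusted p = 0.0439), Itpa (-0.39 ± 0.09) and Nudt1 (-0.35 ± 0.09), which clear altered nucleotides. The calls of Ada and Ppat, like that of Txn1, were lost in most fits that left out 1 lung. By limma 0 of these 42 tested genes passed at 24 h, where 3 were lower and 3 higher at an unadjusted p under 0.05. Over all genes 5.05% were lower and 8.25% higher at that threshold, so the 24 h counts are near the share over all genes.

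The 75th percentile signal used for scaling was 574 to 946 per array, 65.0 to 83.9% of probes were well above background, and replicates of a group correlated at 0.969 to 0.995. The highest share above background was in ozone replicate 3 at 6 h, without which all 5 members were still called at 6 h. All 13 lung cell markers were detected, with sums of 105732 to 115733% in ozone and 103964 to 115509% in air lungs at 6 h. By limma 1 of the 13 was called higher at 6 h, where 1.36% of all genes were, and 0 were called at 24 h. Of 12 markers of thymus and immature T cells, 10 were tested, with sums of 181 to 256% in ozone and 166 to 180.0% in air lungs at 6 h, which did not overlap, and 273 to 346% in ozone and 242 to 281% in air lungs at 24 h. At 6 h 0 of the 10 had a log2 difference below 0 (median 0.35, against 0.07 over all genes) and 0 were called. At 24 h 1 was called higher, where 0.689% of all genes were. Of the 12, Rag2 was well above background on 0 arrays, Themis on at most 2, Rag1 on 7 and Ptcra on 8, and the part of this list in the members' values was not tested. Red cell precursor markers (11 of 12 tested) had 0 lower at 6 h and 2 at 24 h, where 1.32% of all genes were lower. At 24 h 9 of the 11 had a log2 difference below 0 (median -0.51, against 0.02 over all genes). By limma 5 were lower at an unadjusted p under 0.05, where 5.05% of all genes were. Their sums overlapped (1133 to 2311% in ozone and 1043 to 2346% in air lungs at 24 h), and their part was not tested either. Of 10 markers of oesophagus and squamous epithelium, 8 were tested. All 8 had a log2 difference above 0 at 6 h (median 0.88, against 0.07 over all genes, range 0.32 to 2.83), 5 of them at an unadjusted p under 0.05. The 1 called higher was Pax9, which was well above background on 3 of 4 ozone and 0 of 4 air arrays at 6 h. Their sums were 359 to 872% in ozone and 223 to 790% in air lungs at 6 h, which overlapped, and at 24 h the median was 0.14 with 0 called by limma and 1 at an unadjusted p under 0.05. The part of this list in the members' values was not tested. Sums of heart muscle and neutrophil markers overlapped between ozone and air at both times. By limma 1 of 10 heart muscle markers was called higher at 24 h, where 0.689% of all genes were, and 0 at 6 h. Of 10 neutrophil markers tested 0 were called at either time.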

How the data were processed

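Whole-lung RNA was labelled with Cy3 and hybridised to 16 single-colour Agilent arrays, 1 per mouse. Per the file headers, the deposited scanner files hold probe intensity values made by the authors with Agilent Feature Extraction (10.7.1.1) on an mm9 design; the processed signal is background-corrected by that software. The authors' deposited log2 table was an alternative only; its scaling is not stated, its medians were 6.41 in every 6 h column and 6.73 in every 24 h column, so times were not compared in it, and it ran in the direction of the scanner values (correlation at least 0.990).

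Here log2 of the processed intensity minus each array's 75th percentile over 41174 non-control probes was used. A probe was kept if 4 or more of the 16 arrays read it well above background, 157 with uneven spots were left out, and a gene was read by its probe with the highest mean (21631 genes). limma (3.58.1, R 4.3.3) fitted 1 mean per group with a trended prior, and a gene was called at a Benjamini-Hochberg adjusted p under 0.05. The median SE was 0.13 (log2), and the number of arrays limits the precision. RefSeq named 25097 probes by accession, 6333 by symbol and 1640 by synonym, and 8104 kept the file's name.

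The members and gene lists were chosen with earlier results of these data known. Named genes were the 5 members, the genes of 6 pathway lists called at either time, Rrm2b, Samhd1, Dck, Tk2, Dtymk and Dctd, and the 5 genes most like the members' mean; 1 other gene that the rule names is not reported here and is left out of the lists' counts. Alternatives were other scalings, the authors' table, other filters and probe rules, no trend, same-time arrays, array weights, Xist, slide, replicate number and leaving out each lung; slide as a random block, the difference between slides and the ratios of members were added after seeing the data. The fits were tested on simulated data. Exon, intron and UTR positions of probes are not given here.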

Additional observations from a re-analysis of the deposited data

Results flagged for a closer look

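Among 120 groups of 4 lungs examined (every probe of the members, the Tyms-ps probe and the other named genes), 6 held a lung whose gap to its neighbour, divided by the group's range, exceeded Dixon's 95% critical value; chance gives about 1 in 20 groups. For Tk1, air replicate 3 at 6 h stood at 209% against 315 to 318% in the other 3 air lungs (gap over range 0.977), and without it the 6 h groups did not overlap. Air replicate 2 at 6 h was the lowest of its group for Dtymk (0.858), Nme4 (0.859) and Txn1 (0.834). For Dctd, air replicate 1 at 6 h stood at 23.4% against 4.92 to 5.41% in the other 3 (0.939), and for Txn1 air replicate 3 at 24 h was the lowest (0.837).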

How the results depend on the processing

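For the 5 members no alternative turned a direction in the ozone comparisons. At 6 h the number called was 3 with same-time arrays only and 0 within either slide, and at 24 h it was 2 under median scaling, 2 with Xist as a covariate and 0 within the slide of replicates 1 and 2; it ranged from 2 to 5 at 6 h and 3 to 5 at 24 h when 1 lung was left out, and stayed at 0 for the difference of the effects and 2 higher for the air contrast. Within the slide of replicates 3 and 4 at 24 h all 5 members and 321 genes were called. The causes of these moves were not tested. Over all genes the counts at 6 h (968 under the settings used for the report) were 546 with no trend, 100 with same-time arrays, 1814 with array weights, 558 with Xist and 0 within either slide, and at 24 h (435) 256 under median scaling, 1738 with array weights, 245 with Xist and 1 within the slide of replicates 1 and 2. For the difference of the effects (14) they were 38 under quantile normalization, 1 under median scaling, 4 with no trend, 441 with array weights and 6 with slide as a block. Leaving out 1 lung gave 196 (without air replicate 4 at 6 h) to 1687 (without air replicate 2 at 6 h) genes at 6 h, 263 to 530 at 24 h, 0 to 263 for the difference and 9927 to 11810 for the air contrast. At 6 h the count was 433 to 522 without any one of ozone replicates 1 to 3 and 621 without air replicate 1, and at 24 h 263 to 282 without ozone replicate 3 or 4 or air replicate 1, 2 or 3. Of the pathway genes called at 6 h, Txn1 passed in 4, Ada and Ppat in 5, Ggh in 7 and Gmps in 9 of the 16 fits without 1 lung, while Mthfd2, Dtymk, Nme1, Nme4 and Hprt passed in all 16. Same-numbered ozone and air lungs, which always shared a slide, correlated at -0.01 to 0.20 in their deviations from the group means. Lungs of different number on the same slide correlated at -0.05 to 0.43, and lungs on different slides at -0.37 to 0.02. Whether the numbers pair the lungs cannot be settled from these values, because number and slide go together. With a replicate block 2 members and 247 genes were called at 6 h, 3 members and 261 genes at 24 h, and 1 gene for the difference. Median scaling moved the 6 h median of all genes to -0.09, against 0.07 in the report. Both scalings subtract 1 constant per array, so the members' median relative to that of all genes must be the same (-0.73) under both. That equality is no check on the result.

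Slide as a random block (consensus correlation 0.013) and the authors' deposited table left the members' calls at 5 and 4. Not every gene was equally well measured: the third Tyms probe and Dctd lay near background in some lungs. With 4 lungs a group, the adjusted p-values rest on the spread between these lungs, of 1 run per time, pooled over the 4 groups.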
